A study of Rattus norvegicus with 12 samples.

Results

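The genes described here are 10 markers that are used to recognise periosteal and skeletal progenitor cells: Prrx1, Postn, Tnc, Fap, Pdgfra, Pdgfrb, Thy1, Twist1, Twist2 and Gli1. They were found by their symbols in the arrays' own annotation, which gave 12 probes for the 10 genes, of 45598 probes and 25626 genes in all. All 10 genes and all 12 probes passed the filter on dim probes, as did 16367 genes of the whole array. Total RNA came from the calvaria (skull roof) of 10-week-old rats, 24 h after surgery, and was read on 12 single-colour arrays in 3 groups of 4. In the bur group a rectangle of 8 by 3 mm was drilled out with a bur, moved at roughly 0.75 mm/s. The laser group had a rectangle of equal size cut by an Er:YAG laser, whose infrared light is absorbed by water, in 3 strokes at roughly 2 mm/s with 127 mJ per pulse at the tip. The control rats had their periosteum taken off and the bone left uncut. The labels name neither a strain nor a sex, do not say whether the periosteum was also taken off in the ablated groups, and do not give separate animals, so p-values measure only the spread between these samples, which may be technical.

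The periosteum is the sheet of connective tissue on the outer face of bone, and its inner layer holds cells that can become osteoblasts and chondrocytes after injury. Prrx1, Twist1 and Twist2 are transcription factors of the mesenchyme that forms the skull, and Gli1 is both a transcription factor of the hedgehog pathway and one of its target genes. Pdgfra and Pdgfrb are the receptors for platelet-derived growth factors, which attract mesenchymal cells and pericytes. Periostin (Postn) and tenascin-C (Tnc) are secreted matricellular proteins of periosteum and healing wounds. Fap is a cell-surface protease of activated fibroblasts, and Thy1 (CD90) is a surface protein of mesenchymal cells that T cells and neurons carry as well. None of these genes belongs to 1 cell type alone. In whole bone, fewer cells of a type and less RNA per cell cannot be told apart.

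The results turn on 4 probes of 3 genes, whose sequences are shown because each value below is the brightness of 1 such 60-base oligonucleotide. They are written 5′ to 3′ as the arrays carry them, in lower case throughout since no stretch of a probe is singled out.
Prrx1: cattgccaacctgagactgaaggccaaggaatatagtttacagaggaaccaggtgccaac
Postn: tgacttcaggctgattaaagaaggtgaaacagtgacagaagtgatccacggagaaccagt
Tnc, probe A_44_P1090315: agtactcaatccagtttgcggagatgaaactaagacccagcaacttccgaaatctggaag
Tnc, probe A_43_P15638: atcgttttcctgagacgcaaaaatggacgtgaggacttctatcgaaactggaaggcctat
In the rat build rn4 that the file headers name, the Prrx1 probe lies on the minus strand at chr13:78961968-78962027. The Postn probe runs over chr2:143560792-143561828 on the plus strand, a span 977 bases longer than the probe. The headers give no position for either Tnc probe. No annotation of rn4 was used here, so the exons are not named. In the RefSeq gene table of the GRCr8 assembly the genes lie on chromosome 13 (Prrx1), 2 (Postn) and 5 (Tnc), and all 12 probes carry the symbol that this table gives their accession.

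The samples carried the transcripts of bone: Bglap (osteocalcin) lay between 14.77 and 16.86 and Col1a1 between 15.43 and 16.57 in normalised log2 intensity on the 12 arrays. Before normalisation the laser arrays were brighter, with median processed signals of 55.6 to 81.9, against 16.5 to 43.2 on control and 18.6 to 28.3 on bur arrays. All laser arrays lay on 1 slide and all bur and control arrays on another, in separate columns. Slide and laser treatment therefore cannot be told apart, nor can slide column and bur treatment. Control 1 and control 4 stood apart in neural transcripts: Mbp, a myelin gene, read 13.29 and 12.37 there, against 7.87 and 8.14 on control 2 and control 3. Not all neural genes had that pattern: Snap25, a synaptic gene, read 8.78, 7.87, 1.60 and 7.59 on controls 1 to 4, and Gfap, an astrocyte gene, was dim and highest on control 3 (3.67). Summed over 10 neuron and glia genes, linear intensity ran from 529 to 11711 on control, from 195 to 1199 on bur and from 363 to 541 on laser arrays. Counts and calls that change without control 1 and control 4 are given below without them as well.

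The first comparison asks how bone cut with a bur differed from uncut bone at 24 h. Prrx1, Postn and Tnc were higher in bur-drilled bone and the other 7 markers did not pass the test. Differences are between group means of normalised log2 intensity, and a gene counts as called where limma's p, adjusted after Benjamini and Hochberg, was under 0.05 in the test over all 16367 genes. The 3 called members of 10 stand beside 13.7% of all genes called higher, 9.71% called lower and 23.4% called in either direction. For Postn and Tnc all 4 bur arrays exceeded all 4 control arrays. The same held for 13.5% of all genes, and 23.2% had groups that did not overlap in either direction. The median of the 10 differences was 0.66, against 0.08 over all genes, and 8 of the 10 were positive. This median and those of the other comparisons include Twist2, whose probe was well above background on no control or bur array. Without control 1 and control 4 limma called 0 of the 10, with 2 at an unadjusted p under 0.05 (5 with all arrays), and 2351 genes in place of 3829. Scaling each array to its 75th percentile in place of quantile normalisation took the median difference of all genes from 0.08 to -0.08 and the share of calls that were higher from 58.5% to 42.3%.

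The second comparison asks the same of laser-ablated bone. Prrx1, Postn and Tnc were higher there too, and again none of the other 7 passed. For laser against control, 18.3% of all genes were called higher and 34.4% in either direction, so 3 of 10 is close to that background. The groups of Prrx1 and Tnc did not overlap, and over all genes 35.2% had groups that did not. The median difference of the 10 members was 0.44, against 0.01 over all genes, and 9 of 10 were positive. Without control 1 and control 4 the call of Postn was lost and those of Prrx1 and Tnc remained. Both comparisons use the same 4 control arrays, so their values are given side by side for each gene and not as independent evidence.

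The third comparison sets laser against bur. Prrx1 alone of the 10 was called, and it was higher in laser-ablated bone. Over all genes 25.9% were called in this comparison and 11.6% were called higher, so 1 of 10 lies at or below the background. The 10 differences had a median of -0.10, against -0.06 over all genes, and 4 were positive.

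**Figure D1:**
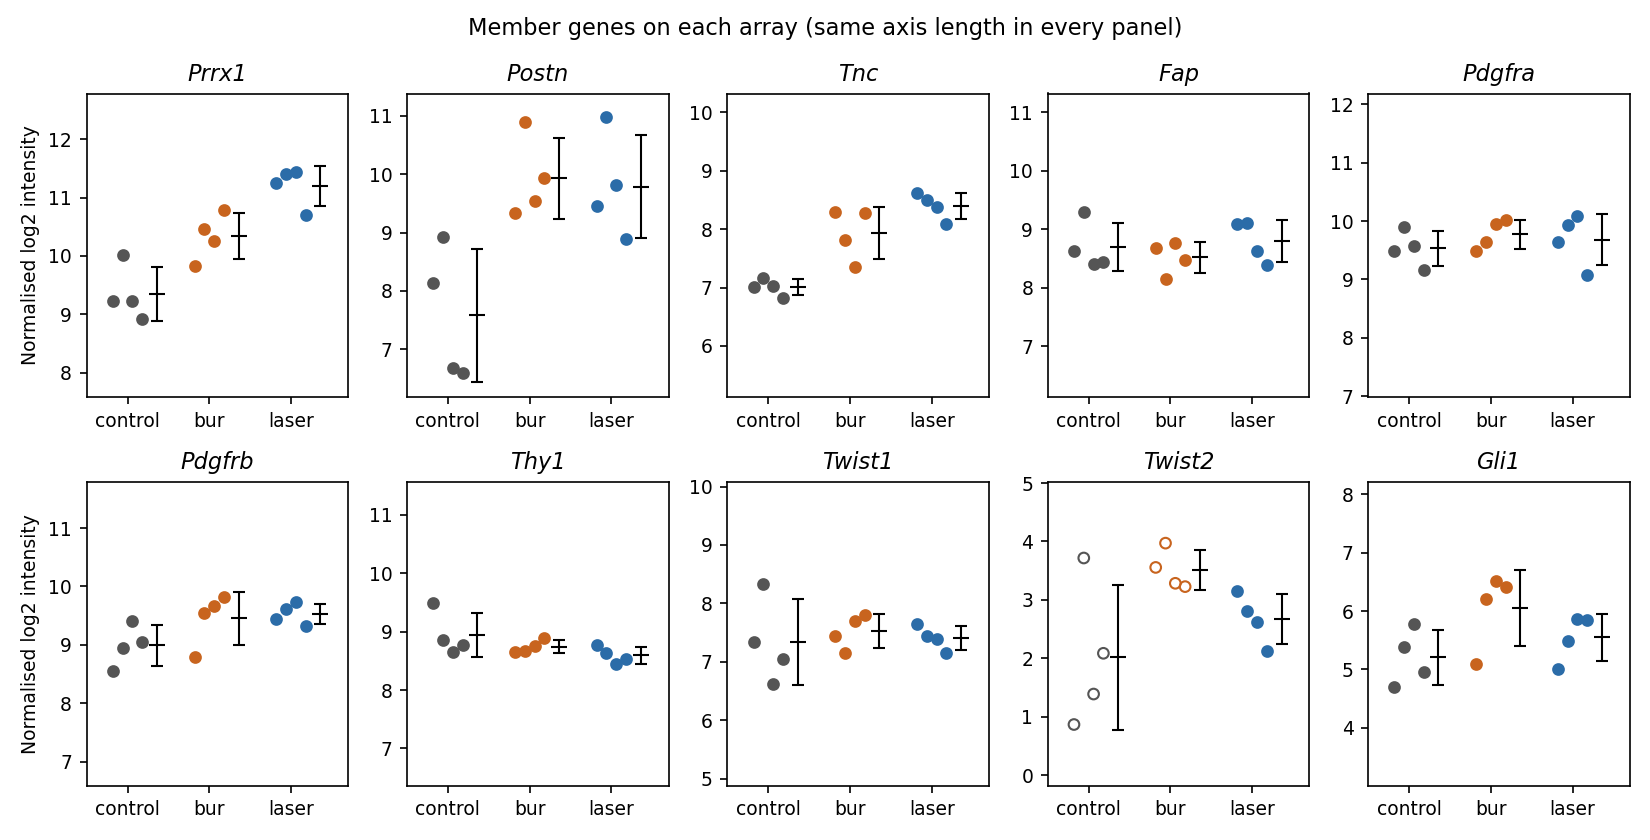
Each point is the normalised log2 intensity (vertical axis, the same length in every panel) of 1 array for 1 gene, in the control, bur and laser groups, and the black bars give the mean and SD of 4 arrays. Open points mark groups in which the probe was not well above background. The control points of Postn and Tnc lie below all bur points, those of Prrx1 and Tnc lie below all laser points, and the Fap, Pdgfra and Twist1 groups overlap.

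Prrx1, a homeobox factor of limb and skull mesenchyme, read 9.22, 10.01, 9.23 and 8.93 on control arrays 1 to 4. It read 9.84, 10.46, 10.26 and 10.78 on the bur arrays and 11.25, 11.40, 11.43 and 10.70 on the laser arrays. The laser values all exceeded the control values, while bur overlapped with control 2 at its low end and with laser 4 at its high end. Prrx1 rose by 1.85 ± 0.27 (SE) with the laser, a 3.60-fold difference (95% interval 2.39 to 5.42, limma adjusted p = 0.000481). With the bur it rose by 0.99 ± 0.27, or 1.98-fold (1.32 to 2.99, limma adjusted p = 0.0218). The laser group exceeded the bur group by 0.86 ± 0.27, or 1.82-fold (1.21 to 2.73, limma adjusted p = 0.0369). The groups thus stood in the order control, bur, laser, with each step past the threshold. The laser-against-control call held under all 22 alternatives tried. The bur call held under 15 of 22, and was lost with normexp background correction, in the fit of the 2 groups alone, and without bur 2, bur 4, control 1 or control 4, at limma adjusted p between 0.0504 and 0.0653. Without control 1 and control 4 together the difference was 0.71 with a limma adjusted p of 0.172. The laser-against-bur call held under 16 of 22 and was lost when bur 1, 2 or 3 or laser 1, 2 or 3 was left out, with limma adjusted p up to 0.0947.

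Postn encodes periostin, a matrix protein named after the periosteum. Its control values were 8.14, 8.92, 6.69 and 6.59, those of bur 9.34, 10.89, 9.54 and 9.93, and those of laser 9.46, 10.97, 9.81 and 8.90. Every bur array exceeded every control array, and laser 4 fell just under control 2. Postn had the largest difference from control of the 10 genes in both comparisons. It rose by 2.34 ± 0.59 with the bur, which is 5.07-fold (95% interval 2.07 to 12.4, limma adjusted p = 0.0151). With the laser it rose by 2.20 ± 0.59, or 4.60-fold (1.87 to 11.3, limma adjusted p = 0.0145). The wide intervals go with a control SD of 1.14 (n = 4), which was the widest of the 10 genes in that group except for the dim Twist2. Bur and laser differed by -0.14 (limma adjusted p = 0.890), with an interval from -1.44 to 1.15 that leaves room for more than a doubling either way. Without control 1 and control 4 the differences were 2.12 and 1.98, and limma's adjusted p rose to 0.0831 and 0.0734. Both calls held under the other 21 alternatives.

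Tnc encodes tenascin-C, an extracellular glycoprotein that appears in bone repair. Its brighter probe read 7.02, 7.16, 7.02 and 6.82 on control, 8.29, 7.82, 7.35 and 8.28 on bur, and 8.62, 8.49, 8.37 and 8.09 on laser arrays. All ablated bones exceeded all controls, whose SD was only 0.14. Tnc rose by 0.93 ± 0.21 with the bur, or 1.90-fold (95% interval 1.39 to 2.61, limma adjusted p = 0.00853), and by 1.39 ± 0.21 with the laser, or 2.62-fold (1.91 to 3.60, limma adjusted p = 0.000568). The second probe, whose sequence is printed above, read 6.62, 7.26, 6.89 and 6.57 on control, 7.89, 8.30, 7.28 and 8.08 on bur, and 7.94, 7.89, 8.04 and 7.31 on laser arrays. It gave differences of 1.05 and 0.96, both called over 27166 probes (limma adjusted p = 0.0127 and 0.0122). Between laser and bur the probes disagreed, at 0.46 (limma adjusted p = 0.128) and -0.09 (limma adjusted p = 0.822), so no order of laser and bur is given for Tnc. With normexp background correction the bur difference was 0.57 and still called, and without control 1 and control 4 it was 0.84 with a limma adjusted p of 0.0693, while the laser call held under all 22 alternatives.

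**Figure D2:**
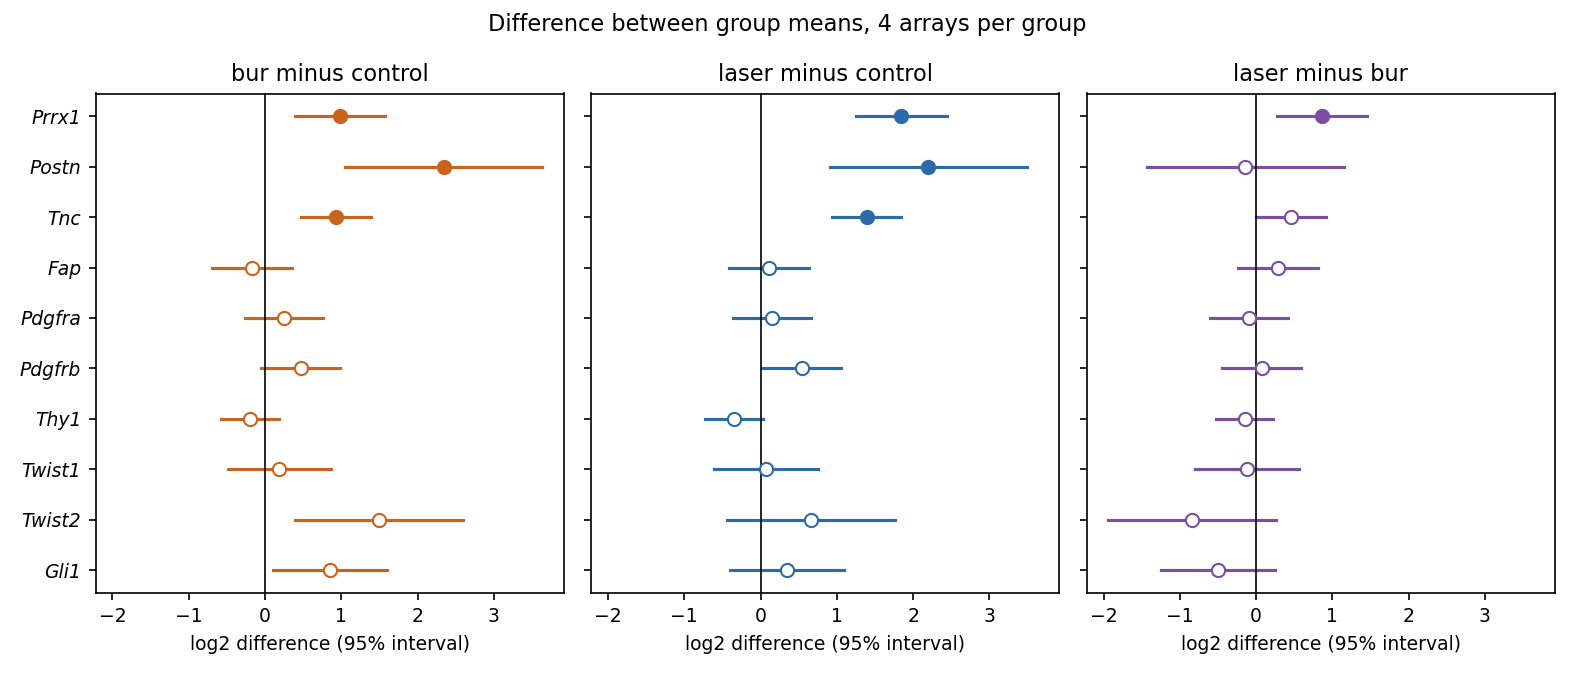
Points are log2 differences between group means (horizontal axis) with 95% intervals for the 10 genes in the 3 comparisons, and filled points passed an adjusted p of 0.05 in limma's test over all genes. Prrx1, Postn and Tnc are filled in both comparisons with control, and Prrx1 alone, at 0.86, is filled for laser minus bur, while the Twist2 points rest on control and bur values that were not well above background.

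The other transcription factors showed no call. Twist1, a basic helix-loop-helix factor whose loss in humans closes skull sutures early, ran from 6.62 to 8.34 on control, from 7.16 to 7.81 on bur and from 7.16 to 7.64 on laser arrays. Its differences from control were 0.19 (95% interval -0.49 to 0.87) with the bur and 0.07 (-0.61 to 0.75) with the laser, and both changed sign under some alternatives. The bur and laser ranges of Twist1 lay inside the control range. Twist2, its close relative, was well above background on no control and no bur array and on all 4 laser arrays. It read 0.86, 3.72, 1.39 and 2.08 on control, 3.55, 3.97, 3.28 and 3.23 on bur, and 3.15, 2.81, 2.62 and 2.12 on laser arrays. No fold is given for it, since bur and control hold only bounds and the laser mean did not exceed the mean detection limit of the control or of the bur arrays.

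Gli1 marks progenitors of the skull sutures and the periosteum. It read 4.71, 5.38, 5.78 and 4.95 on control, 5.10, 6.20, 6.51 and 6.41 on bur, and 5.01, 5.49, 5.86 and 5.85 on laser arrays. Bur arrays 2, 3 and 4 exceeded every control and laser array, and bur 1 did not. The bur difference of 0.85 ± 0.34 had an unadjusted p of 0.0292 and a limma adjusted p of 0.0928, so it was not called. It passed with normexp background correction (0.46, limma adjusted p = 0.0391) and without bur 1 (1.17, limma adjusted p = 0.0161), and with the replicate number as a block limma's adjusted p was 0.0135, while without control 1 and control 4 it was 0.47 (limma adjusted p = 0.470). In the authors' deposited table it was 0.61 with an adjusted p of 0.00899. The laser difference of 0.35 (95% interval -0.40 to 1.09) was not called in either source.

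Neither receptor for platelet-derived growth factors was called. Pdgfra, a receptor of mesenchymal progenitors, ran from 9.17 to 9.90 on control, from 9.49 to 10.02 on bur and from 9.08 to 10.09 on laser arrays. Its differences from control were 0.25 (95% interval -0.27 to 0.76) and 0.15 (-0.36 to 0.66), so a change of more than 1.69-fold upward with the bur lies outside the interval. Pdgfrb, a receptor of pericytes and of progenitors around vessels, ran from 8.56 to 9.41 on control, from 8.80 to 9.82 on bur and from 9.33 to 9.73 on laser arrays. Its differences of 0.47 (95% interval -0.05 to 0.98, limma adjusted p = 0.175) and 0.54 (0.02 to 1.05, unadjusted p = 0.0426, limma adjusted p = 0.0986) did not pass. Without bur 1 both passed, at limma adjusted p of 0.0321 and 0.0398, and the authors' deposited table gave 0.54 for laser against control with an adjusted p of 0.0205.

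The surface markers Fap and Thy1 were not called higher in ablated bone. Fap ran from 8.40 to 9.29 on control, from 8.16 to 8.76 on bur and from 8.38 to 9.11 on laser arrays, and its differences were -0.18 (95% interval -0.70 to 0.35) and 0.11 (-0.41 to 0.64). Before normalisation the processed signal of the Fap probe ran from 660.0 to 1073 on laser and from 199 to 370 on control arrays, and 75th percentile scaling left its differences at -0.22 and 0.06. Thy1 read 9.48, 8.86, 8.66 and 8.77 on control, 8.66, 8.67, 8.76 and 8.88 on bur, and 8.77, 8.63, 8.44 and 8.54 on laser arrays. Its highest array was control 1, which also had the highest summed neuron and glia signal (11711), while control 4, with the second highest (6456), read Thy1 below control 2 (650). The part of neural RNA in these values was not tested. The differences of -0.20 (limma adjusted p = 0.434) and -0.35 (limma adjusted p = 0.138) became -0.01 and -0.16 without control 1 and control 4. The authors' deposited table gave -0.48 and -0.49 for the same probe, with adjusted p of 0.0304 and 0.0212, and normexp background correction of the scanner values also passed, at -0.42 and -0.44 (limma adjusted p = 0.0412 and 0.0299). A second, dim Thy1 probe read between 1.83 and 4.71 on the 12 arrays, was well above background on 2 control, 1 bur and 4 laser arrays, and gave differences of 0.16 and 0.59 that were not called.

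Within groups the markers varied together to different degrees. For each pair of members the deviations from group means were correlated over the 12 arrays, as a description, since all values of an array share its RNA and its normalisation. The 45 pairs had a median Pearson r of 0.31, 34 were positive and 12 lay above 0.5. The most alike were Prrx1 and Pdgfra (r = 0.86), Pdgfrb and Gli1 (0.83), Fap and Twist1 (0.82) and Prrx1 and Postn (0.73). The least alike were Tnc and Gli1 (-0.47), followed by Thy1 and Gli1 (-0.40) and Pdgfrb and Thy1 (-0.39).

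**Figure D3:**
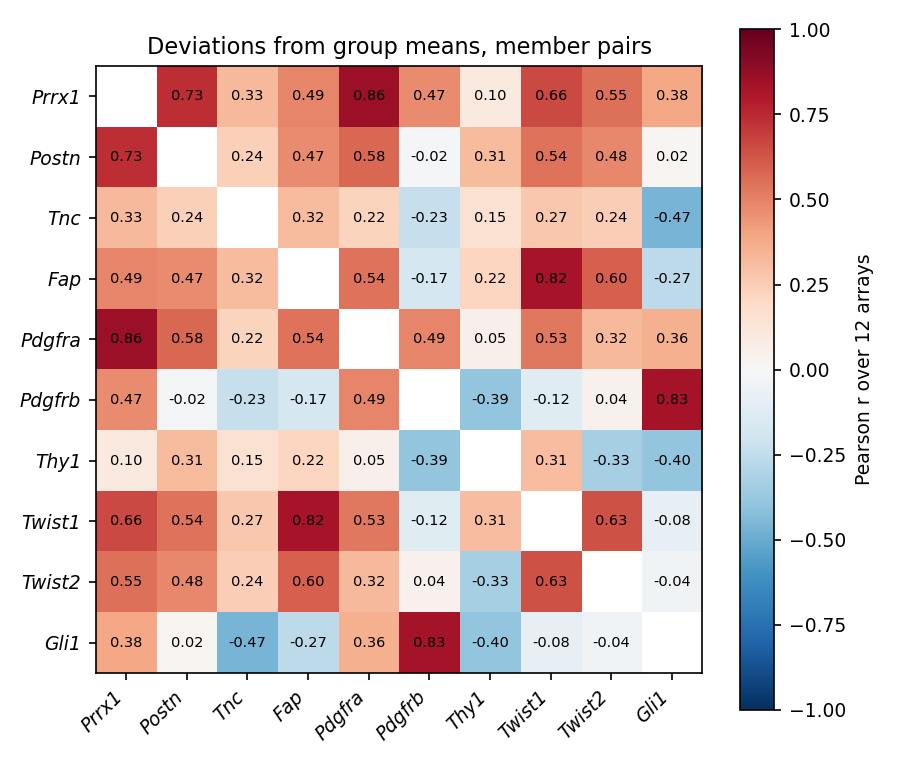
Each cell gives Pearson's r between 2 member genes, over 12 arrays, of their deviations from group means (red positive, blue negative). Prrx1 with Pdgfra (0.86) and Pdgfrb with Gli1 (0.83) are the darkest red, and Tnc with Gli1 (-0.47) is the darkest blue.

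Genes that work with the members were counted in lists, beside the background percentages given above. In the hedgehog pathway, in which ligands release Smo from inhibition by Ptch1 so that Gli factors can act, 3 of 11 tested genes were called higher and 1 lower in bur-drilled bone, and 4 higher and 1 lower in laser-ablated bone. Both higher counts include Dhh, which only laser arrays read well above background, and without it they were 2 and 3 of 10. Without control 1 and control 4 the calls numbered 1 and 3. Gli3, a Gli factor that often represses, rose by 1.53 and 1.49 (limma adjusted p = 0.0111 and 0.00884), but 3 of its 4 control values were not well above background, and with normexp both differences were 0.36. Neither Gli3 call held without control 1 and control 4. Smo, the signal transducer, rose by 0.92 and 0.84 (limma adjusted p = 0.0171 and 0.0187), stood well above background on only 2 control arrays, and lost both calls without control 1 and control 4. With normexp its differences were 0.23 and 0.15, and the laser call was also lost without laser 2. No fold is given for Dhh, and its laser difference turned negative with values raised to the background limit. Ihh was the other gene called higher with the laser. Cdon, a co-receptor for hedgehog ligands, was lower in laser-ablated bone than in bur-drilled bone by -0.78 (limma adjusted p = 0.00631). The lower call with the bur was Gas1, whose 2 probes went opposite ways, at -0.62 and 0.61.

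Among the ligands of the receptors, 3 genes were tested. Pdgfa was called with its brightest probe, at -1.44 for bur against control (limma adjusted p = 0.00296) and 1.74 for laser against bur (limma adjusted p = 0.000802). Its other 2 probes gave 0.83 and 0.80 for bur against control, which were not called, and 1.28 and 1.28 for laser against control, both called (limma adjusted p = 0.00871 and 0.00751). No direction is therefore given for Pdgfa with the bur. Of 5 tested relatives of Fap none was called against control, and Prep, a cytosolic prolyl peptidase, was lower by -0.39 in laser than in bur (limma adjusted p = 0.0368), a call that was lost when bur 2, 3 or 4 or laser 1, 2 or 3 was left out. At an unadjusted p under 0.05, limma gave 3 of these 5 relatives for bur against control and 1 for laser against control.

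Of 14 partners of Twist and other mesenchymal transcription factors and receptors, 3 were called higher with the bur and 3 with the laser, none lower (1 and 2 without control 1 and control 4). Prrx2, the paralog of Prrx1, rose by 1.90 ± 0.32 and 2.57 ± 0.32 (limma adjusted p = 0.00212 and 0.000204), and with normexp the bur difference was 1.22. Snai1, a repressor of epithelial genes, rose by 0.99 and 1.13 (limma adjusted p = 0.0216 and 0.00818), and without control 1 and control 4 neither passed. The bur call of Snai1 was also lost without control 1, bur 3 or bur 4. Fgfr1, a fibroblast growth factor receptor, rose by 1.55 with the laser and exceeded bur by 1.29 with its brightest probe (limma adjusted p = 0.000903 and 0.00358). Its other 2 probes gave 0.28 and 1.05 for laser against bur, and neither was called (limma adjusted p = 0.417 and 0.128). For laser against control the brighter of these 2 gave 0.70, which was called (limma adjusted p = 0.0370). The dimmer was also higher there but not called (limma adjusted p = 0.131). Tcf3, a dimer partner of Twist proteins, was higher in laser than in bur by 0.71, and Zeb2, a repressor of epithelial genes, differed by -0.68 (limma adjusted p = 0.00564 and 0.0123). Zeb1, of the same list, went the other way at 0.52 (limma adjusted p = 0.0231), a call that held under 16 of 22 alternatives. Its other 2 probes gave 0.62, which was called, and -0.42, which was not (limma adjusted p = 0.0131 and 0.270).

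Of 16 matricellular proteins and integrins that accompany Postn and Tnc, 7 were called higher and none lower with the bur, and with the laser 6 higher and 1 lower, or 3 and 2 calls in all without control 1 and control 4. Vcan (versican, a large proteoglycan) rose by 2.67 ± 0.45 with the bur and was lower by -2.35 ± 0.45 in laser than in bur (limma adjusted p = 0.00198 and 0.00321). Fn1 (fibronectin) rose by 1.58 with the bur and was lower by -2.02 in laser than in bur (limma adjusted p = 0.00353 and 0.000694). Tgfbi, a paralog of periostin, rose by 2.06 with the bur (limma adjusted p = 0.00576). For laser against control Vcan, Fn1 and Tgfbi differed by 0.32, -0.44 and 0.62, and none was called (limma adjusted p = 0.615, 0.271 and 0.289). Thbs2 (thrombospondin 2) rose by 2.59 and 2.26 (limma adjusted p = 0.0114 and 0.0154), and without control 1 and control 4 neither passed. With normexp they were 1.68 and 1.47. Between laser and bur 5 of the 16 were called lower, 1 higher and 10 not at all, against 14.2% of all genes called lower. Postn and Tnc were not called in that comparison.

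Some of the other progenitor and fibroblast markers were called higher in each ablated group. Of 16 further progenitor markers, 6 were called higher with the bur and 5 with the laser, none lower (2 and 4 without control 1 and control 4). The other 10 and 11 were not called. At an unadjusted p under 0.05, limma gave 7 higher and 2 lower for laser against control. The 2 lower were Cxcl12 at -0.95 and Grem1 at -0.51 (limma adjusted p = 0.102 and 0.104). Eng (endoglin) rose by 1.38 with the bur (limma adjusted p = 0.00273), or 0.81 with normexp. Nes (nestin) rose by 2.10 and 2.35 (limma adjusted p = 0.0168 and 0.00670), stood well above background on only 2 control arrays, and gave 0.36 and 0.48 with normexp. Its bur call was lost without bur 4. Ctsk, a protease of osteoclasts that also marks a population of periosteal stem cells, rose by 1.28 with the laser and exceeded bur by 1.26 (limma adjusted p = 0.000520 and 0.000794). Of 12 fibroblast markers, 6 were called higher and none lower in each comparison with control, or 4 in each without control 1 and control 4. S100a4 rose by 1.74 and Col3a1 by 1.93 with the bur (limma adjusted p = 0.000250 and 0.00571). In the laser count S100a4 stands by its brighter probe, whose call held under 21 of 22 alternatives. Its dimmer probe gave 1.26 with the bur, which was called, and 0.17 with the laser, which was not (limma adjusted p = 0.00641 and 0.650). The summed fibroblast signal ran from 21698 to 33460 on control, from 59731 to 101734 on bur and from 43637 to 55545 on laser arrays, and S100a4 made up 45.9% to 67.2% of it. Without S100a4 it ran from 7498 to 18113 on control, from 19715 to 35834 on bur and from 16461 to 29279 on laser arrays, and laser then overlapped both other groups. Between laser and bur 1 of the 12 fibroblast genes, S100a4, was called, and the median difference was -0.06.

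**Figure D4:**
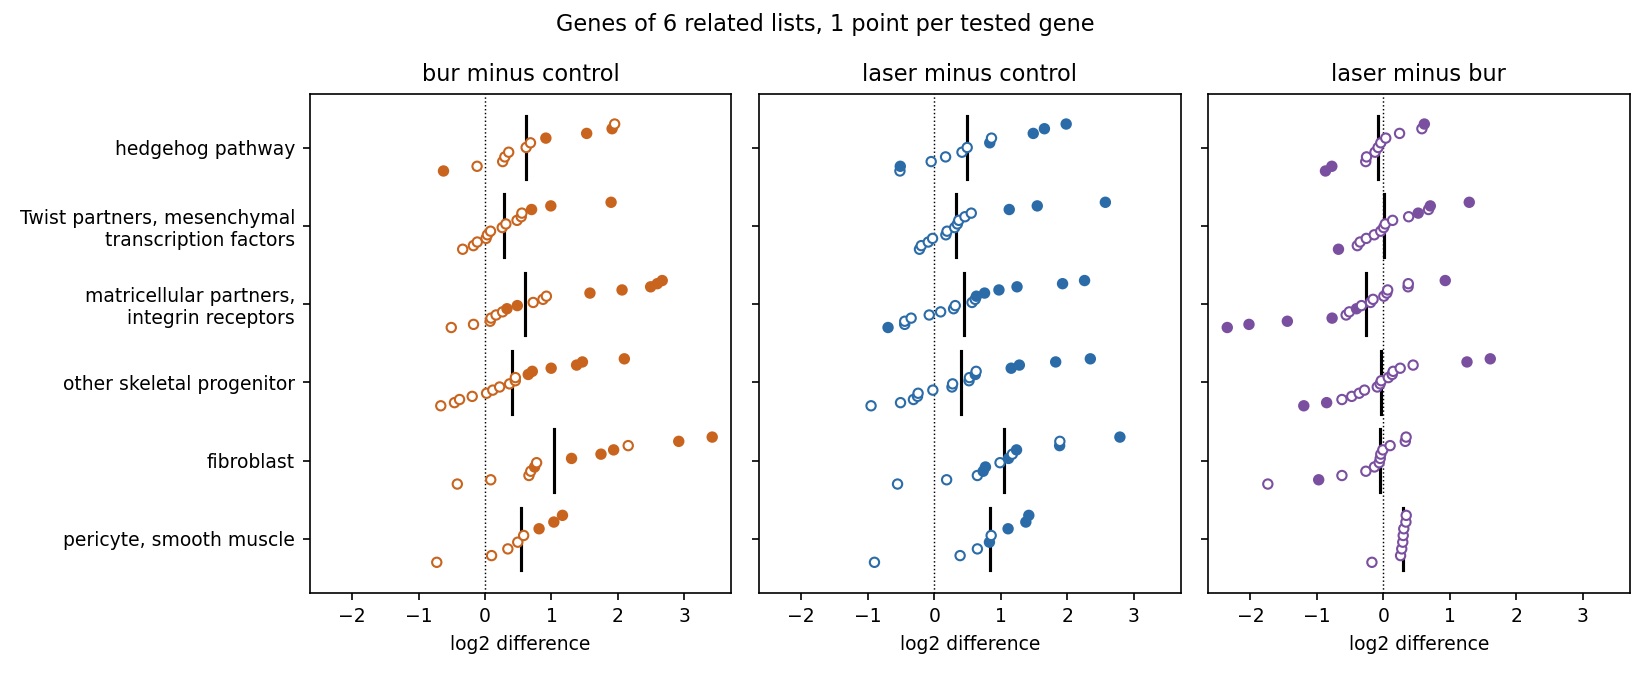
Each point is the log2 difference (horizontal axis) of 1 tested gene of 6 related lists in the 3 comparisons, filled where limma's adjusted p was under 0.05, and black bars mark list medians. In the matricellular row, 7 filled points lie to the right for bur minus control and 5 to the left for laser minus bur.

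Markers of some other cells also differed between the groups. Endothelial genes (7 tested) had 1 called lower with the bur, and 2 higher and 1 lower with the laser. T cell genes (8 tested) had 2 called higher with the bur and 1 with the laser. Without control 1 and control 4 the calls numbered 0 and 2, and 1 and 0. The summed signals of these 2 lists overlapped between all groups. Skeletal muscle genes (6 tested) had 1 and 2 called higher, and cartilage genes (2 tested) none. Of 8 pericyte and smooth muscle markers, 3 were called higher with the bur and 4 with the laser (2 and 4 without control 1 and control 4). Their summed signal ran from 921 to 1361 on control, from 1596 to 2216 on bur and from 1809 to 2763 on laser arrays. Tagln, an actin-binding protein of smooth muscle, rose by 1.17 and 1.42 (limma adjusted p = 0.000551 and 6.48e-05), or 0.70 and 0.87 with normexp. Myh11, of the same list, went the other way at -0.73 and -0.90 and was not called (limma adjusted p = 0.149 and 0.0630). The summed signal of 11 osteoblast and osteocyte genes ran from 96963 to 187886 on control, from 139562 to 210892 on bur and from 215171 to 297713 on laser arrays. Called higher were 3 of these 11 with the bur and 6 with the laser, none lower (0 and 3 without control 1 and control 4). The brightest by mean, Col1a1 and Bglap, were called in no comparison. Col1a2, the next brightest, was called higher with the laser, by 1.82 against control and 1.89 against bur (limma adjusted p = 0.000246 and 0.000238). Mepe, which follows it, was called higher against control by 1.30 with the bur and 1.74 with the laser (limma adjusted p = 0.0339 and 0.00607). Of 7 leukocyte genes, 4 were called higher (Cd14, Cd68, Csf1r and Itgam) and S100a9 lower with the bur. With the laser 4 were called higher (S100a9, Cd68, S100a8 and Cd14), and between laser and bur S100a8 and S100a9 were called higher and Cd14, Ptprc and Itgam lower. Without control 1 and control 4, 4 were called with the bur and 3 with the laser, in either direction. The summed leukocyte signal ran from 51880 to 74546 on control, from 44395 to 64952 on bur and from 99785 to 134324 on laser arrays, and S100a8 and S100a9 made up at least 73.3% of it on every array. Without those neutrophil genes it ran from 3596 to 6317 on control, from 9029 to 14593 on bur and from 5504 to 7218 on laser arrays, so bur was then the highest group. The part of these cells in the differences of Prrx1, Postn and Tnc was not tested.

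The calls of the 3 genes varied in how much they rested on single arrays. Over all alternatives the bur difference of Prrx1 ran from 0.67 to 1.21, that of Postn from 2.01 to 2.79 and that of Tnc from 0.57 to 1.12. The authors' deposited table lists all 3 as higher in both comparisons with control, at 0.72 and 1.48 for Prrx1, and 2.39 and 2.05 for Postn, with the second probe standing for Tnc and adjusted p of at most 0.0428. Of all its entries, 31.3% and 39.2% had an adjusted p under 0.05 in these comparisons.

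**Figure D5:**
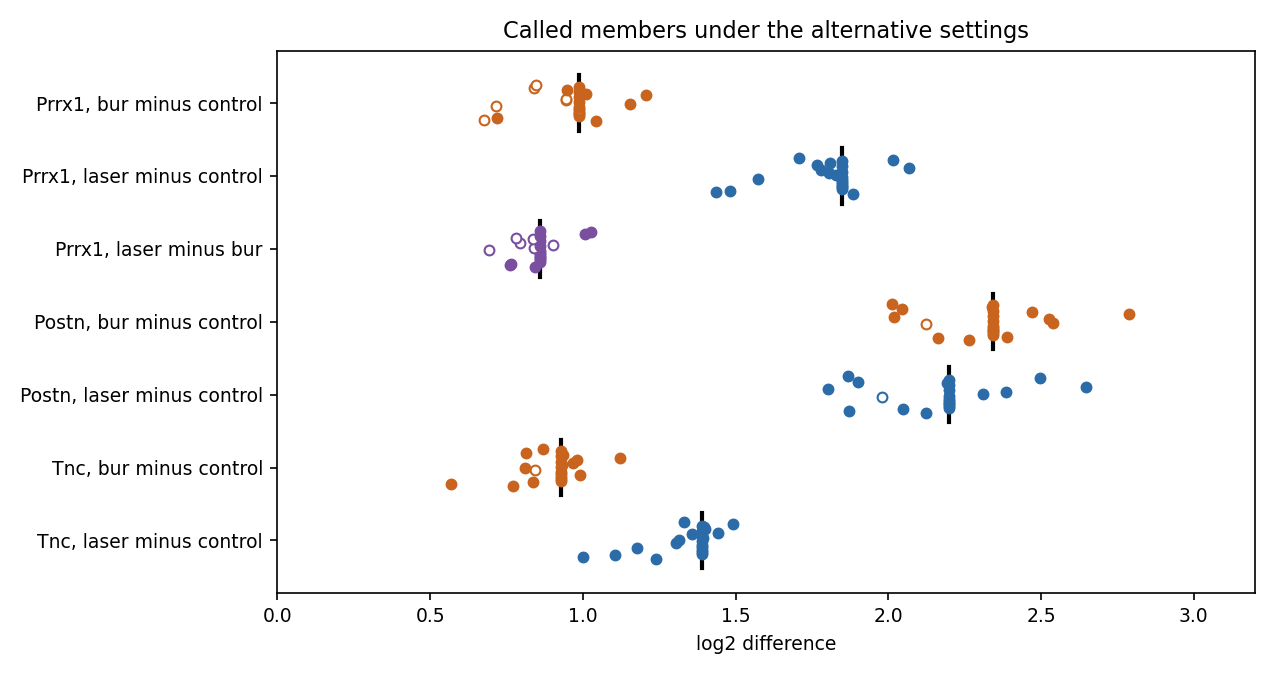
Each point is the log2 difference (horizontal axis) of a called gene under 1 of 22 alternative settings, filled where limma's adjusted p stayed under 0.05, and the black bar is the value reported. All points lie above 0, and the rows Prrx1 laser minus control and Tnc laser minus control are filled throughout.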

How the data were processed

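Scanner output of Agilent Feature Extraction (version 11.0.1.1 in the submitters' processing notes) was deposited as spot intensity. Its processed signal is background-subtracted, per the file headers, and was taken to log2 in R 4.3.3. Spots flagged as controls or outliers were removed, arrays were quantile normalised and spots of a probe averaged. Probes well above background on at least 4 of 12 arrays were kept, and the brightest kept probe stood for its gene. Names came from RefSeq (GRCr8) through the accessions, otherwise from the files. All 12 arrays entered 1 fit (limma 3.58.1, lmFit, contrasts and eBayes) with Benjamini-Hochberg adjustment over all genes within a comparison. Other probes of a gene came from the same fit over all kept probes. The script was tested on simulated data.

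The authors' deposited tables hold log2 values, log2 differences, p-values and adjusted p-values, per the file headers. They served as an alternative and are named where quoted. The aligner of probes to the genome is not given in the sources used here.

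Precision is limited by the number of arrays, and no spot was saturated. Within groups, pairs of arrays correlated at 0.949 to 0.989. The members and lists were chosen with earlier results of these data known. Genes named from a list are up to 4 called genes with the smallest p in a comparison. For the cell-type lists they are the up to 4 brightest genes. Bglap, Col1a1, Col1a2, Mepe, Cxcl12, Grem1, Ihh, Tagln, Myh11, Cd14, Csf1r and Itgam were named after their values were seen. The main fit did not treat the replicate numbers as pairing the arrays, and whether they do is not settled. Of the 12 correlations of same-numbered arrays (-0.10 to 0.35, median 0.14), 7 exceeded 0.1. Yet 8 of 12 arrays correlated best with an array of their own number. Arrays of the same number also lay in the same row of their slides, so number and slide row cannot be told apart.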

Additional observations from a re-analysis of the deposited data

How the results depend on the processing

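The members were recomputed under 22 alternatives in 3 comparisons, with 9 of 10 tested (all but Twist2) for the authors' values and for probes detected on all 12 arrays. The sums without S100a4 or S100a8 and S100a9 and the counts without Dhh were added after the values were seen. Members called for bur against control numbered 5 with normexp background correction, 5 with the replicate number as a block and 0 without control 1 and control 4. The same count for laser against bur was 2 with values raised to the background limit and 2 with only the 2 groups in the fit. The block added Gli1 (limma adjusted p = 0.0135) and Twist2 (0.0435) for bur against control and Pdgfrb (0.0437) for laser against control. Since 8 of 12 arrays correlated best with an array of their own number, which is also their slide row, these 3 calls depend on an unsettled pairing. All genes called for bur against control numbered 2474 with only those groups in the fit, which is also the fit within 1 slide, and 2351 without control 1 and control 4, which has fewer arrays. Leaving out 1 array at a time gave 2 to 5, 3 to 4 and 0 to 1 members and 2752 to 4100, 4198 to 5729 and 3009 to 4576 genes for bur against control, laser against control and laser against bur. The share of calls that were higher in laser against bur was 44.9%, and 31.5% with the background limit and 32.7% with probes detected on all 12 arrays.

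No called member changed direction under any of these alternatives. Uncalled differences that changed sign without control 1 and control 4 were, for laser against control, Fap (-0.044), Gli1 (-0.030), Pdgfra (-0.051) and Twist1 (-0.070). With the mean of probes Thy1 was 0.12 for laser against control and 0.14 for laser against bur. Twist1 was -0.066 for bur against control with normexp and -0.048 with the authors' values. For laser against control it was -0.071 with 75th percentile scaling, -0.17 with normexp and -0.19 with the authors' values. Twist2 was -0.51 for laser against control with the background limit. Omitting 1 array turned Fap (-0.27 to 0.025) and Twist1 (-0.051 to 0.52) for bur against control. It also turned Twist1 (-0.17 to 0.41) for laser against control, and Pdgfra (-0.23 to 0.11), Pdgfrb (-0.15 to 0.19) and Postn (-0.54 to 0.18) for laser against bur. Among the other genes, the mean of probes gave 0.066 for Pdgfa in bur against control and -0.011 for Sufu in laser against bur, where its brightest probe gave 0.62. The background limit gave -0.39 for Dhh in laser against control. Apart from those of disagreeing or dim probes, the cause was not tested. A slide block could not be fitted for the laser comparisons.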
